A study of Homo sapiens with 12 samples.

Results

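The monocarboxylate transporter genes described here are 9 members of the SLC16A family together with BSG, which encodes basigin, a chaperone of these transporters. They were taken from the deposited table by gene name: SLC16A1, SLC16A3, SLC16A5, SLC16A6, SLC16A7, SLC16A9, SLC16A10, SLC16A13, SLC16A14 and BSG. All 10 were among the 58302 genes of the table. The set was chosen because SLC16A9 and SLC16A14 were much higher in selinexor-treated SU-DHL6 cells. Values of all members in that comparison are therefore given as a description, with no p-value for a member. Counts of members past the threshold there carry no support. RNA was sequenced from a pair of human diffuse large B-cell lymphoma cell lines, both labelled WT. SU-DHL6 is labelled GCB-DLBCL and OCI-LY3 is labelled ABC-DLBCL, and each line is a single established culture line. The 4 groups were selinexor-treated SU-DHL6, untreated SU-DHL6, selinexor-treated OCI-LY3 and untreated OCI-LY3, with 3 libraries in each. Selinexor inhibits nuclear export by XPO1 (exportin). The labels' protocols name doses of 300 and 100 nM and durations of 24 and 48 h, without saying which library or line received which. A difference between the lines in dose or duration cannot be told apart from a difference in response.

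Monocarboxylate transporters sit in the plasma membrane and move small organic acids with a single carboxyl group. The best-known members carry lactate, pyruvate and ketone bodies together with a proton. SLC16A1 (MCT1) carries lactate in either direction, SLC16A3 (MCT4) is best known as a lactate exporter of glycolytic cells, and SLC16A7 (MCT2) binds pyruvate and lactate with high affinity. SLC16A1 and SLC16A3 need basigin to reach the cell surface. Other members carry other substrates: SLC16A9 (MCT9) is known for carnitine and SLC16A10 (TAT1) for aromatic amino acids and thyroid hormone. SLC16A6 (MCT7) exports the ketone body beta-hydroxybutyrate from the liver in zebrafish. In B-cell lymphomas, MCT1 and MCT4 are known for lactate export and as drug targets.

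Library totals lay between 14210200 and 16405842 counts, and every pair of replicates differed by more than counting error. The target of the drug, XPO1, had 434, 579 and 547 CPM (counts per 1e6 of the scaled library) in selinexor-treated SU-DHL6 against 179, 136 and 143 CPM in untreated SU-DHL6. In OCI-LY3 it had 358, 329 and 377 CPM with selinexor against 180.2, 186 and 171 CPM untreated. The B-cell markers summed to between 1943 and 3666 CPM in all libraries. The 4 myeloid markers summed to between 19.3 and 21.5 CPM in treated OCI-LY3 and between 29.3 and 32.0 CPM in untreated OCI-LY3. In SU-DHL6 they summed to between 0.486 and 0.720 CPM with selinexor and to at most 0.373 CPM untreated. In OCI-LY3, 2 of the 4 (CD14 and LYZ) were at 0. ITGAM, most of the sum, had 17.5, 14.7 and 15.4 CPM treated against 28.1, 30.7 and 30.9 CPM untreated. CSF1R went the other way, at 3.96, 4.51 and 4.60 CPM treated against 1.18, 0.421 and 1.18 CPM untreated. The part of these markers in the results below was not tested. In RNA from whole cultures, fewer cells expressing a gene and less of its RNA per cell cannot be told apart.

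The promoters of SLC16A9 and SLC16A14 are printed because these genes carried the largest differences in SU-DHL6. RefSeq (GRCh38.p14) gives 2 starts for SLC16A9, at chr10:59710030-59710329 and chr10:59709801-59710100, and 1 for SLC16A14, at chr2:230068875-230069174, all on the minus strand. Each window runs from 250 bases before the start to 50 bases after it, and the windows of SLC16A9 share the bases from 59710030 to 59710100. SLC16A9 as counted reaches to chr10:59736002, upstream of both its windows. Which start these cells used was not tested. Sequences run 5′ to 3′ on the gene's strand, and capitals mark matches, on either strand, to the motifs searched.
SLC16A9 start 1: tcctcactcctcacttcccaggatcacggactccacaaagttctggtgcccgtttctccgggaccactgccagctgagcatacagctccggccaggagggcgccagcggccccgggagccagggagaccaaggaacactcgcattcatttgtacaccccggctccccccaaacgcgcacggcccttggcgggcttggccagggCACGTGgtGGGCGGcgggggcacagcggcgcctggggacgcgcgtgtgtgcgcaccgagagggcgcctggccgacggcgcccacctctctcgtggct
SLC16A9 start 2: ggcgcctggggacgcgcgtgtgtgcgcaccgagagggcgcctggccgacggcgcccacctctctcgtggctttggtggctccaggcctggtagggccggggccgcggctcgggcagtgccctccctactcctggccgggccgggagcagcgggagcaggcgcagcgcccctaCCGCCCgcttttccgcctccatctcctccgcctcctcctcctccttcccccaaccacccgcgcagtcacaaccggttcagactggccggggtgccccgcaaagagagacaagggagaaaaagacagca
SLC16A14: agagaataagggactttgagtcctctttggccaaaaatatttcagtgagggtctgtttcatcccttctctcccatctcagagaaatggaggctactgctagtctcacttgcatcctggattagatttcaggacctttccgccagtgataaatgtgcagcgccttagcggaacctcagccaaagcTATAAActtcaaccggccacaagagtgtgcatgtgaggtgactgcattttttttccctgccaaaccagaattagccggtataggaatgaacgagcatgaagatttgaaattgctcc
The first window of SLC16A9 holds an E-box (CACGTG), found in 7.26% of the 35116 promoters of the same length. Both SLC16A9 windows hold a GC box (GGGCGG, printed as its complement CCGCCC in the second), found in 45.0% of promoters. SLC16A14 holds a match to the TATA box motif (TATAAA), found in 11.5%. Matches were taken at any position in a window, and whether any of them acts as such an element was not tested. A CRE (TGACGTCA, 1.85%) and a CCAAT box (CCAAT, 34.6%) were searched for and not found in these windows. None of the printed matches overlap each other. The SLC16A14 window was 45.7% G and C, against a median of 58.7% over all promoters, and the SLC16A9 windows were 69.7% and 71.7%. The table held promoters of 6 of the 10 members.

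SLC16A9 lies on chr10:59650761-59736002, minus strand, in the coordinates of the table (GRCh38). It had 39.4, 44.8 and 41.4 CPM in selinexor-treated SU-DHL6 against 6.17, 5.41 and 3.54 CPM in untreated SU-DHL6. All 3 treated libraries lay above all 3 untreated ones, with a log2 fold change of 3.05 ± 0.16 (SE). Treated OCI-LY3 libraries had 30.7, 29.1 and 32.1 CPM against 21.0, 19.6 and 18.8 CPM untreated. The OCI-LY3 groups did not overlap either, and SLC16A9 rose there by a log2 fold change of 0.63 ± 0.15 (adjusted p = 0.00335). Among treated libraries SLC16A9 was higher in each SU-DHL6 library than in any OCI-LY3 library. Among untreated ones it was lower in SU-DHL6 throughout, by a log2 difference of -1.97 ± 0.16, given without a test.

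SLC16A14 (MCT14), a member whose substrate is less well studied, lies on chr2:230034974-230068999, minus strand. It had 64.2, 67.1 and 68.6 CPM in selinexor-treated SU-DHL6 against 11.3, 9.32 and 9.82 CPM in untreated SU-DHL6, a log2 fold change of 2.72 ± 0.13. The treated libraries differed among themselves by far less than the distance between the groups. SLC16A14 had no count in any of the 6 OCI-LY3 libraries. A count of 0 allows up to 3 counts per library, a mean of 0.228 CPM in treated and 0.213 CPM in untreated OCI-LY3. Levels in SU-DHL6 were therefore at least 292-fold higher than in OCI-LY3 with selinexor and at least 47.5-fold higher untreated. These limits cover counting error only. SLC16A14 passed the filter on low counts only through its level in SU-DHL6, and no response can be given for OCI-LY3.

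**Figure D1:**
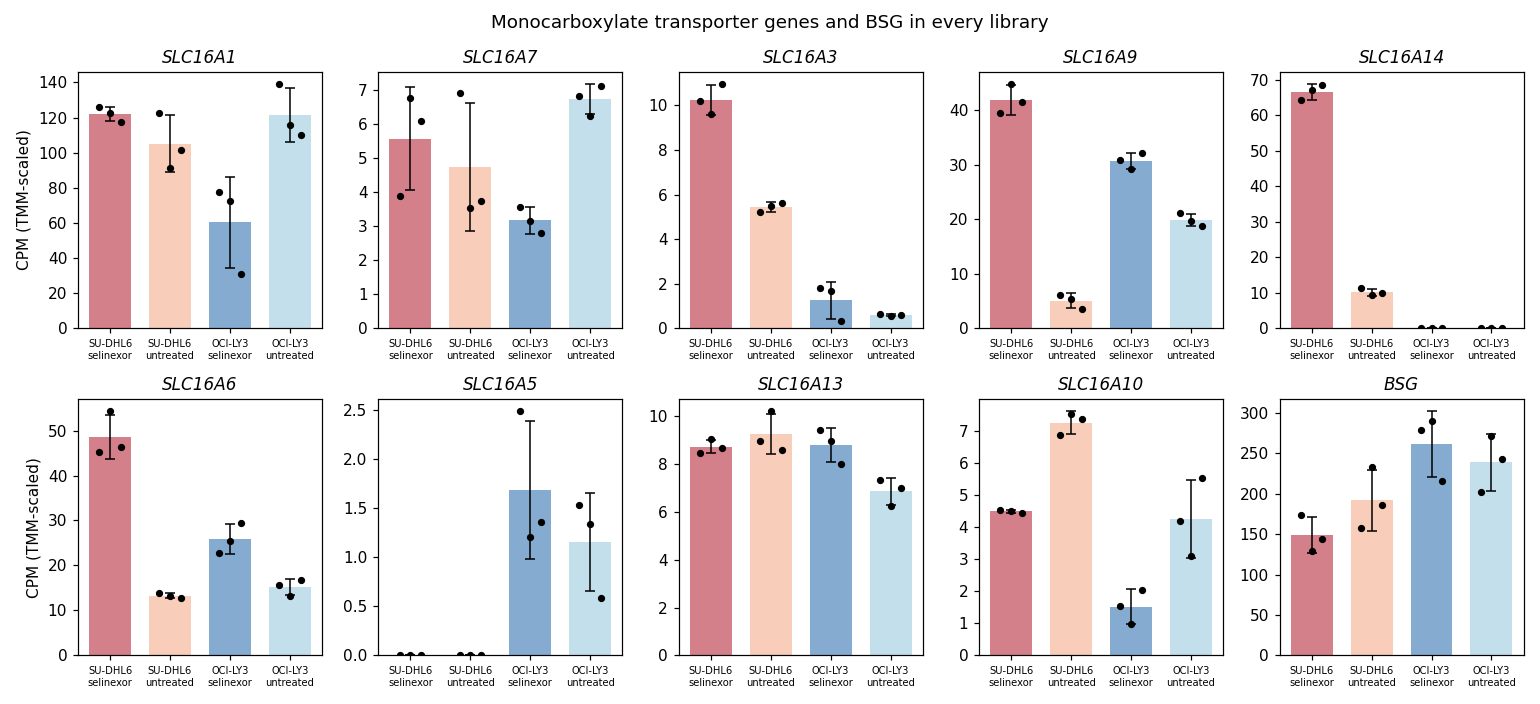
CPM of each of the 10 genes (vertical axes, each from 0, scaled by TMM factors) in every library, with 1 point per library and the 4 groups along the horizontal axis. SLC16A9 and SLC16A14 stand far above their untreated libraries in treated SU-DHL6, SLC16A14 is at 0 in OCI-LY3, and SLC16A5 is at 0 in SU-DHL6.

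Among the lactate and pyruvate transporters, SLC16A1 fell in OCI-LY3 and SLC16A7 fell with it. SLC16A1 (chr1:112911847-112957013, minus strand) had 77.3, 72.6 and 30.7 CPM in selinexor-treated OCI-LY3 against 139, 116 and 109.8 CPM in untreated OCI-LY3. The third treated library was well below the other 2, but all 3 lay below the untreated ones. The log2 fold change was -1.01 ± 0.27 (adjusted p = 0.0115), and -0.69 without the third treated library (adjusted p = 0.00141). Fitted on the 6 OCI-LY3 libraries alone the adjusted p was 0.0650. In SU-DHL6 it had 126, 122 and 118 CPM with selinexor against 122.7, 91.1 and 102 CPM untreated, and the groups overlapped (0.22 ± 0.27). SLC16A1 shares 175 exon bases with the antisense gene SLC16A1-AS1, which had 96, 146 and 107 counts in treated and 167, 142 and 154 counts in untreated OCI-LY3. In SU-DHL6 it had 194, 195 and 175 counts treated and 151, 138 and 104 untreated. The strand setting of the counting is not given in the sources used here, so reads of such pairs cannot be told apart.

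SLC16A7 (chr12:59596067-59789855, plus strand) had 3.57, 3.16 and 2.79 CPM in selinexor-treated OCI-LY3 against 6.83, 6.25 and 7.13 CPM in untreated OCI-LY3. It fell by 1.08 on the log2 scale (SE 0.28, adjusted p = 0.00544), with no overlap. In SU-DHL6 it had 3.88, 6.76 and 6.10 CPM with selinexor against 6.92, 3.54 and 3.76 CPM untreated, and both groups spread over the same range (0.24 ± 0.26).

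SLC16A3 (chr17:82228397-82261129, plus strand) was higher in every SU-DHL6 library than in any OCI-LY3 library. It passed the filter on low counts only through SU-DHL6. It had 10.2, 9.62 and 10.96 CPM in selinexor-treated SU-DHL6 against 5.22, 5.47 and 5.63 CPM in untreated SU-DHL6, without overlap (0.91 ± 0.30). In OCI-LY3 it had 1.79, 1.65 and 0.302 CPM with selinexor against 0.627, 0.562 and 0.588 CPM untreated. There 2 treated libraries lay above and 1 below all untreated ones, and the difference missed the threshold (1.06 ± 0.45, adjusted p = 0.0684). Without the third treated library it passed (1.53, adjusted p = 0.000345), and DESeq2 also called it (1.09, adjusted p = 0.0316). SLC16A3 shares 482 exon bases with CSNK1D on the opposite strand. CSNK1D had between 1705 and 2043 counts in treated and between 1367 and 1771 in untreated SU-DHL6, and between 1204 and 1359 in treated and between 1038 and 1193 in untreated OCI-LY3.

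BSG lies on chr19:571277-583493, plus strand, and its groups overlapped in both lines. It had 174, 129 and 144 CPM in selinexor-treated SU-DHL6 against 158, 232 and 186 CPM in untreated SU-DHL6 (-0.37 ± 0.16). In OCI-LY3 it had 279, 290.3 and 215 CPM with selinexor against 202, 271 and 242 CPM untreated (0.13 ± 0.16, adjusted p = 0.553). BSG shares 140 exon bases with an antisense gene, AC009005.1, that had at most 80 counts in any library.

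SLC16A6, like SLC16A9, was higher with selinexor in both lines. SLC16A6 (chr17:68267026-68291267, minus strand) had 45.1, 54.3 and 46.3 CPM in selinexor-treated SU-DHL6 against 13.97, 13.1 and 12.8 CPM in untreated SU-DHL6, without overlap (1.87 ± 0.13). The OCI-LY3 libraries had 22.8, 25.5 and 29.4 CPM with selinexor against 15.7, 13.1 and 16.8 CPM untreated, and SLC16A6 rose there by a log2 fold change of 0.77 ± 0.13 (adjusted p = 0.000329). It shares 144 exon bases with ARSG on the opposite strand. ARSG also had more counts with selinexor, between 341 and 381 against between 232 and 286 in SU-DHL6, and between 302 and 311 against between 124 and 142 in OCI-LY3. Its part in the SLC16A6 values was not tested.

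SLC16A10 (chr6:111087503-111231194, plus strand) had the largest fall in OCI-LY3 among the members. It had 1.55, 0.978 and 2.04 CPM in selinexor-treated OCI-LY3 against 4.18, 3.09 and 5.51 CPM in untreated OCI-LY3. It fell by 1.48 on the log2 scale (SE 0.27, adjusted p = 0.000488), without overlap. In SU-DHL6 it had 4.54, 4.49 and 4.44 CPM with selinexor against 6.85, 7.52 and 7.37 CPM untreated, and these groups did not overlap either (-0.69 ± 0.23).

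SLC16A13 (MCT13) lies on chr17:7036075-7040121, plus strand. It had 8.47, 9.03 and 8.66 CPM in selinexor-treated SU-DHL6 against 8.95, 10.2 and 8.60 CPM in untreated SU-DHL6, with overlap. The log2 fold change of -0.09 ± 0.14 became 0.18 when libraries were scaled by their totals alone. With selinexor the OCI-LY3 libraries had 9.39, 8.95 and 8.0 CPM, against 7.31, 6.25 and 6.98 CPM untreated. These groups did not overlap, but the difference missed the threshold (0.36 ± 0.15, adjusted p = 0.0604), and it passed with limma-voom (0.36, adjusted p = 0.0480) and with DESeq2 size factors (0.38, adjusted p = 0.0489).

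SLC16A5 (MCT6), on chr17:75087727-75106162, plus strand, had no count in any of the 6 SU-DHL6 libraries. Treated OCI-LY3 libraries had 2.48, 1.20 and 1.36 CPM against 1.53, 1.33 and 0.588 CPM untreated, with overlap (0.54 ± 0.45, adjusted p = 0.373). The limit of 3 counts per library averaged 0.163 CPM in treated and 0.202 CPM in untreated SU-DHL6. Levels in OCI-LY3 were thus at least 10.3-fold higher than in SU-DHL6 with selinexor and at least 5.69-fold higher untreated. SLC16A5 passed the filter only through OCI-LY3.

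Of the 9 members with counts in SU-DHL6, 4 were past the adjusted p threshold of 0.05 upwards (SLC16A3, SLC16A6, SLC16A9 and SLC16A14) and 1 downwards (SLC16A10). The same threshold was passed upwards by 20.4% and downwards by 22.8% of the 16474 genes tested. The libraries did not overlap for the same 5 genes, which 25.5% of all genes did upwards and 25.6% downwards. With libraries scaled by their totals alone, 4 members were past the threshold upwards and 0 downwards, where 33.1% and 14.4% of all genes were. Without the third treated or the second untreated SU-DHL6 library, 3 members were past it. Since the set was chosen on this comparison, nothing is read from these counts. Of the 9 members with counts in OCI-LY3, 2 rose (SLC16A6 and SLC16A9) and 3 fell (SLC16A1, SLC16A7 and SLC16A10), where 22.2% of all genes rose and 22.2% fell. The median log2 fold change of these 9 was 0.36 in OCI-LY3, with 0.00 over all genes. In SU-DHL6 the median was 0.24 against 0.00. Libraries of treated and untreated OCI-LY3 did not overlap for 3 members upwards (28.8% of all genes) and 3 downwards (28.7%).

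The difference between the responses, SU-DHL6 minus OCI-LY3, contains the comparison on which the genes were chosen and is a description. It was 2.42 ± 0.22 on the log2 scale for SLC16A9, 1.32 ± 0.38 for SLC16A7, 1.23 ± 0.38 for SLC16A1, 1.10 ± 0.19 for SLC16A6 and 0.79 ± 0.35 for SLC16A10. It was -0.15 ± 0.51 for SLC16A3, -0.44 ± 0.20 for SLC16A13 and -0.50 ± 0.23 for BSG. With libraries scaled by their totals alone, the difference was -0.06 for SLC16A13 and -0.12 for BSG, and the positive differences were all larger. The sign for SLC16A3 varied with the setting, between -0.61 and 0.24, so no direction is given for it. SLC16A10 was lower with selinexor in both lines, and its positive difference stands for the smaller fold change in SU-DHL6.

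**Figure D2:**
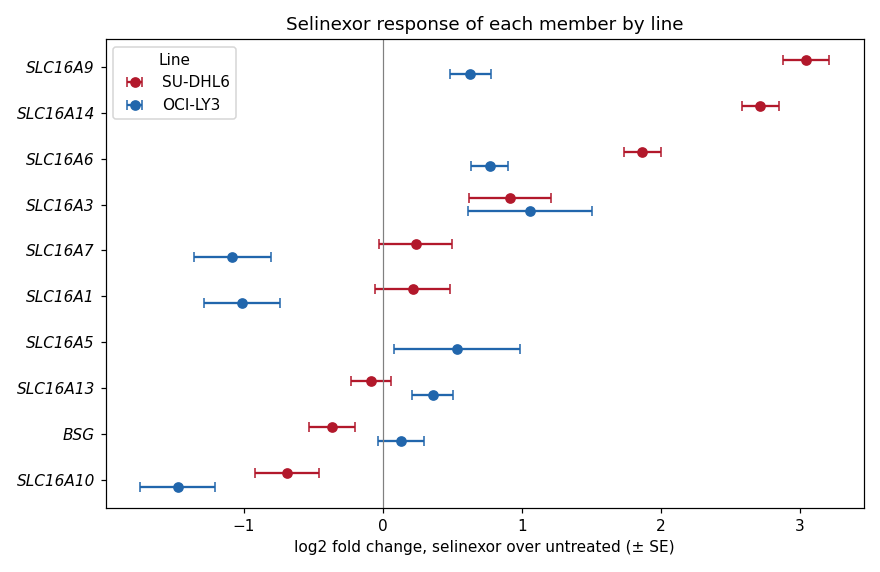
Log2 fold change of selinexor over untreated (horizontal axis) for each member in SU-DHL6 and in OCI-LY3, with bars of 1 SE. SLC16A9 is at 3.05 in SU-DHL6 and 0.63 in OCI-LY3, SLC16A1 and SLC16A7 lie near -1 in OCI-LY3 only, and members without counts in a line have no point there.

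The untreated libraries of both lines were also compared. This comparison was tested for the 8 members other than SLC16A9 and SLC16A14, and it shares its untreated SU-DHL6 libraries with the comparison used to choose the set. Untreated SU-DHL6 was higher for SLC16A3 (3.18 ± 0.39), SLC16A10 (0.77 ± 0.24, adjusted p = 0.0103) and SLC16A13 (0.43 ± 0.15, adjusted p = 0.0165). SLC16A3 had 9, 8 and 8 counts in untreated OCI-LY3 and passed the filter on low counts only through SU-DHL6. Its difference between the lines therefore carries no support. SLC16A5, which had no count in SU-DHL6 and passed the filter only through OCI-LY3, is given by its bound above and not counted. With SLC16A3 counted, 3 of the other 7 were higher, where 33.7% of all genes were higher and 33.6% lower. For the same 3 genes the libraries of the untreated lines did not overlap, which held for 35.4% of all genes upwards and 35.6% downwards. The other 4 missed the threshold: SLC16A1 (-0.21 ± 0.27, adjusted p = 0.511), SLC16A6 (-0.19 ± 0.13, adjusted p = 0.218), SLC16A7 (-0.51 ± 0.27, adjusted p = 0.106) and BSG (-0.31 ± 0.16, adjusted p = 0.108). Without the second untreated OCI-LY3 library, neither SLC16A10 (adjusted p = 0.0571) nor SLC16A13 (adjusted p = 0.0726) passed. SLC16A13 also missed it without the second untreated SU-DHL6 library (adjusted p = 0.0686). SLC16A7 was called lower without the first untreated SU-DHL6 library (-0.88, adjusted p = 0.00617), and BSG without the second (-0.47, adjusted p = 0.0253).

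Levels were compared between genes only on the deposited FPKM values (fragments scaled by gene length and library size), which correct for length but were not scaled by TMM. BSG was highest in all 4 groups, at 18.3 ± 2.44 FPKM in treated SU-DHL6 against 19.6 ± 3.41 in untreated SU-DHL6, and at 23.5 ± 3.52 in treated OCI-LY3 against 23.2 ± 3.19 in untreated OCI-LY3 (SD, n = 3 each). SLC16A1 came second in each group, at 15.9 ± 0.113 FPKM in treated and 11.4 ± 2.15 in untreated SU-DHL6, and at 5.74 ± 2.41 in treated and 12.6 ± 1.73 in untreated OCI-LY3. In treated SU-DHL6 the libraries of BSG and SLC16A1 overlapped, and in treated OCI-LY3 those of SLC16A1 and SLC16A9 overlapped. On this scale the SLC16A1 libraries of treated and untreated SU-DHL6 did not overlap, whereas they did in CPM: TMM factors were between 1.17 and 1.23 in treated SU-DHL6 and between 0.974 and 1.04 in untreated SU-DHL6.

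Behind these genes the order differed by group. In treated SU-DHL6 SLC16A14 (10.01 ± 0.603 FPKM) came after SLC16A1, followed by SLC16A6 (7.92 ± 0.851) and SLC16A9 (7.28 ± 0.566), which overlapped each other. In untreated SU-DHL6 SLC16A13 (3.39 ± 0.301) came after SLC16A1, and SLC16A6, SLC16A14 and SLC16A9 followed in that order. In treated OCI-LY3 SLC16A9 (3.90 ± 0.202) came after SLC16A1, above SLC16A6 (3.10 ± 0.430) and SLC16A13 (2.84 ± 0.199), which overlapped. In untreated OCI-LY3 SLC16A9 (2.73 ± 0.181) and SLC16A13 (2.40 ± 0.211) overlapped, with SLC16A6 (1.97 ± 0.248) next. SLC16A3, SLC16A5, SLC16A7 and SLC16A10 stayed under 1 FPKM in every group.

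The 9 SLC16A genes summed to 46.4 ± 2.04 FPKM in treated SU-DHL6 against 19.7 ± 2.70 in untreated SU-DHL6, and to 16.2 ± 2.10 in treated OCI-LY3 against 20.5 ± 2.19 in untreated OCI-LY3 (SD, n = 3 each). SLC16A1 made up 34.3% ± 1.67 of this sum in treated and 57.7% ± 3.59 in untreated SU-DHL6. In OCI-LY3 its share was 34.5% ± 11.3 treated and 61.1% ± 2.39 untreated, the wide spread coming with the third treated library at 21.6%. SLC16A14 held 21.6% ± 0.838 of the sum in treated and 6.43% ± 0.118 in untreated SU-DHL6. SLC16A9 held 15.7% ± 0.542 in treated and 3.68% ± 0.826 in untreated SU-DHL6, and 24.6% ± 4.72 in treated and 13.3% ± 0.627 in untreated OCI-LY3. The FPKM of BSG over that of SLC16A1 was 1.15 ± 0.151 in treated and 1.78 ± 0.598 in untreated SU-DHL6, and 4.59 ± 1.75 in treated and 1.89 ± 0.453 in untreated OCI-LY3.

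**Figure D3:**
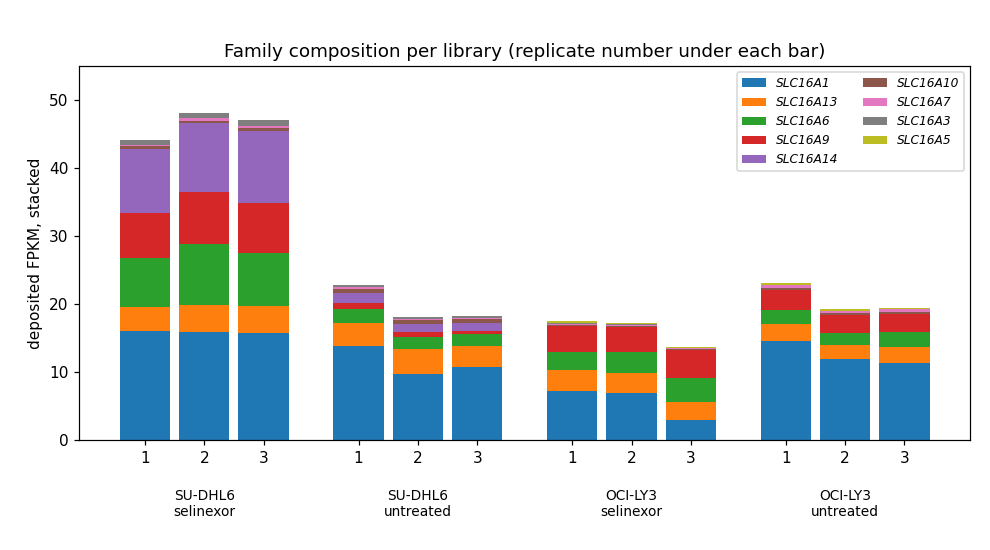
Deposited FPKM of the SLC16A members stacked per library (vertical axis), with 3 bars for each of the 4 groups and the replicate number under each bar. The treated SU-DHL6 bars are the tallest, at a mean of 46.4 FPKM, and hold large blocks of SLC16A14, SLC16A6 and SLC16A9, while SLC16A1 takes the largest block of each untreated bar.

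The 3 protein-coding genes whose log2 CPM followed SLC16A9 most closely over the 12 libraries were ZNF700 (Pearson r = 0.983), UTP25 (0.983) and HNRNPH2 (0.972), of 8682 compared. For SLC16A14 they were DAAM1 (0.996), MYLIP (0.995) and ABCC5 (0.995). The r between SLC16A9 and SLC16A14 was -0.09. The 12 points share 2 lines and 4 groups, so these values describe the group pattern and carry no test.

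Of the family outside the set, SLC16A8, SLC16A11 and SLC16A12 did not pass the filter, and SLC16A12 had no count in any library. SLC16A4 was higher in untreated SU-DHL6 than in untreated OCI-LY3 (2.02 ± 0.50), at 2.51, 1.86 and 0.867 CPM against 0.488, 0.281 and 0.514 CPM. SLC16A4 passed the filter on low counts only through SU-DHL6, so this difference carries no support. Its selinexor response in OCI-LY3 missed the threshold (-0.60 ± 0.66, adjusted p = 0.494). EMB encodes embigin, the chaperone of SLC16A7. It had 63.4, 59.1 and 72.1 CPM in treated OCI-LY3 against 50.4, 52.7 and 45.3 CPM in untreated OCI-LY3 and rose there (0.39 ± 0.13, adjusted p = 0.0238). In untreated SU-DHL6 EMB was higher than in untreated OCI-LY3 (1.18 ± 0.13, adjusted p = 1.49e-06). NPTN encodes neuroplastin, related to basigin. It was lower in untreated SU-DHL6 (-0.68 ± 0.13, adjusted p = 0.000306), and its response in OCI-LY3 missed the threshold (0.30 ± 0.13, adjusted p = 0.0673).

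Genes that make, use or otherwise carry the substrates of these transporters were taken from 4 lists of 78 genes, of which 53 were tested. In SU-DHL6, 9 rose and 19 fell with selinexor (20.4% and 22.8% of all genes), and in OCI-LY3, 9 rose and 18 fell (22.2% and 22.2%). With libraries scaled by their totals alone the balance turned in SU-DHL6, to 15 higher and 12 lower (33.1% and 14.4% of all genes), while OCI-LY3 had 8 higher and 22 lower (17.8% and 26.6%). Without the second untreated SU-DHL6 library, 17 rather than 28 of these genes were called in SU-DHL6. Among 21 tested lactate and pyruvate genes, 3 rose and 7 fell in SU-DHL6. LDHA, the lactate dehydrogenase subunit that favours lactate, had 1101, 962 and 934 CPM with selinexor against 583, 744 and 440 CPM untreated there, and rose (0.76 ± 0.19, adjusted p = 0.00492). PCK2, a mitochondrial enzyme that makes phosphoenolpyruvate, fell by 2.34 on the log2 scale in SU-DHL6 (SE 0.13, adjusted p = 6.57e-09), and GPT2, an alanine transaminase, fell by 3.17 (SE 0.25, adjusted p = 7.79e-07). In OCI-LY3, 3 of the 21 rose and 9 fell. PC, counted among the 3, had 1.86, 0.978 and 2.49 CPM with selinexor against 0.697, 0 and 0.220 CPM untreated there. It passed the filter on low counts only through treated OCI-LY3, so its rise carries no support. PDK2, a kinase that inhibits pyruvate dehydrogenase, had 75.1, 66.5 and 62.5 CPM with selinexor against 16.7, 29.3 and 17.9 CPM untreated (1.67 ± 0.25, adjusted p = 0.000136). PCK2 fell by 1.63 in OCI-LY3 (SE 0.12, adjusted p = 1.85e-07), and ME2, a mitochondrial malic enzyme, fell by 1.26 (SE 0.10, adjusted p = 2.5e-07).

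The ketone list also held HMGCS1, an enzyme of sterol synthesis, which is counted among its genes that rose in OCI-LY3. Of 8 tested genes of this list, 1 rose and 3 fell in SU-DHL6 and 2 rose and 3 fell in OCI-LY3. OXCT1, which activates ketone bodies for use, fell in both, to 24.4, 20.2 and 19.8 CPM in treated SU-DHL6 against 65.7, 62.2 and 60.2 CPM in untreated SU-DHL6 (-1.55 ± 0.12, adjusted p = 1.5e-07). In OCI-LY3 it had 15.1, 14.5 and 18.1 CPM with selinexor against 49.2, 48.2 and 46.9 CPM untreated (-1.60 ± 0.12, adjusted p = 1.45e-07). Of 15 carnitine and creatine genes, the substrates tied to SLC16A9, 4 rose and 5 fell in SU-DHL6, and 1 rose and 1 fell in OCI-LY3. CPT2, a carnitine palmitoyltransferase, rose in OCI-LY3 (0.56 ± 0.12, adjusted p = 0.00131) and in SU-DHL6 (0.31 ± 0.11, adjusted p = 0.0383). SLC22A5, the main carnitine importer, fell in OCI-LY3 (-0.99 ± 0.32, adjusted p = 0.0231). In SU-DHL6 SLC6A8, the creatine transporter, rose from a very low level, at 0.609, 1.03 and 0.909 CPM with selinexor against 0.271, 0.311 and 0.289 CPM untreated (1.52 ± 0.41, adjusted p = 0.00841).

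Of 9 tested thyroid hormone and aromatic amino acid genes, whose substrates SLC16A10 carries, 1 rose and 4 fell in SU-DHL6 and 3 rose and 5 fell in OCI-LY3. SLC7A5, a large neutral amino acid transporter, had 208, 223 and 221 CPM in treated SU-DHL6 against 679.9, 936 and 919 CPM in untreated SU-DHL6 (-1.96 ± 0.14, adjusted p = 7.8e-08). In OCI-LY3 it had 504, 494 and 377 CPM with selinexor against 1097, 1139 and 1224 CPM untreated (-1.33 ± 0.13, adjusted p = 2.56e-06). SLC43A1, a transporter of branched-chain and aromatic amino acids, fell by 2.10 in SU-DHL6 (SE 0.12, adjusted p = 8.67e-09) and by 1.16 in OCI-LY3 (SE 0.11, adjusted p = 2.09e-06). CRYM, a thyroid hormone binding protein, had 207, 209.7 and 220.1 CPM in treated OCI-LY3 against 24.7, 28.9 and 23.5 CPM in untreated OCI-LY3 (3.05 ± 0.12, adjusted p = 5.02e-10). DIO3, which inactivates thyroid hormone, had 4.74, 3.91 and 3.70 CPM in treated OCI-LY3 against 0, 0.0702 and 0 CPM in untreated OCI-LY3, and no count in SU-DHL6. DIO3 passed the filter on low counts only through treated OCI-LY3, so its rise carries no support. It is among the 3 counted as rising here and, like PC, among the 9 over all 4 lists.

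**Figure D4:**
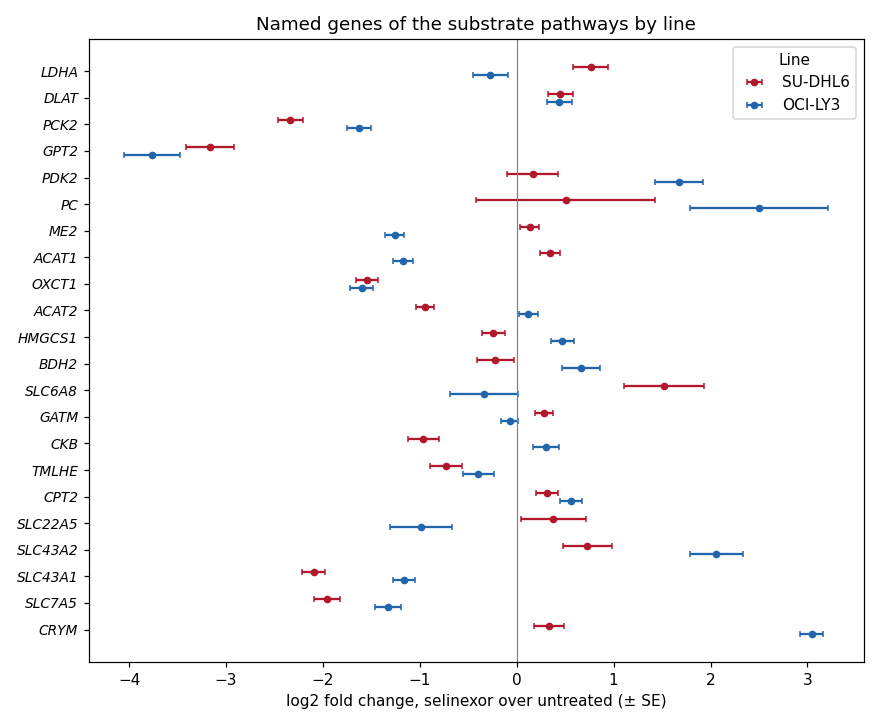
Log2 fold change of selinexor over untreated (horizontal axis) of the named substrate-pathway genes in SU-DHL6 and OCI-LY3, with bars of 1 SE. PCK2, GPT2, OXCT1, SLC43A1 and SLC7A5 lie below 0 in both lines, and CRYM stands at 3.05 in OCI-LY3.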

How the data were processed

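Per the file headers, the table the authors deposited holds whole-number read counts beside FPKM values, for 58302 genes and 12 libraries. RNA came from a column kit and an mRNA library kit, per the labels' protocols. No aligner or counter is named, and strandedness is likewise not given in the sources used here. GRCm38 and mm10, which are mouse, appear in the submitters' processing notes, yet the gene identifiers are human: 58039 were found in GENCODE release 29, 97.4% of these with identical coordinates. The deposited FPKM were used for levels between genes and not tested.

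The members and lists were chosen with earlier results of these data known. The deposited counts went into edgeR 4.0.16 (R 4.3.3): filterByExpr by group left 16474 genes, TMM scaling, 1 coefficient per group over 12 libraries, robust quasi-likelihood F tests, Benjamini-Hochberg adjustment over all genes and a threshold of 0.05. SE is the standard error of the log2 fold change. CPM are per TMM-scaled library. Named genes were all members, relatives outside the set, up to 2 list genes per direction and line with the smallest adjusted p (given in part), and the 3 genes most like SLC16A9 and SLC16A14 whose log2 CPM averaged 3 or more. The design text calls the triplicates biological without saying how cultures were set up, so p-values measure only the spread between these libraries. Replicates correlated at r between 0.981 and 0.986 over genes. Alternatives were DESeq2 1.42.0, its size factors in edgeR, library totals, limma-voom (limma 3.58.1), other filters, only the 6 libraries compared, a replicate block, and leaving out each library. The scripts were checked on simulated counts.

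A total of 235 genes had exactly 1 count in all libraries, so counts may in part be estimates. Some genes are not reported here.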

Additional observations from a re-analysis of the deposited data

Results flagged for a closer look

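No member was picked out by the checks for discordant results. Of the 23 named substrate-pathway genes, 3 had treated libraries above the untreated ones in 1 line and below them in the other, without overlap. The same held for 11.6% of all 16474 genes tested, and the difference between the lines was not tested for these 3. Of them, ACAT1 passed the threshold in both lines. ACAT1, a ketone thiolase, had a log2 fold change of 0.35 in SU-DHL6 and -1.18 in OCI-LY3. HMGCS1, the cytosolic HMG-CoA synthase of sterol synthesis, had -0.24 in SU-DHL6, which missed the threshold and is smaller than the 0.27 by which scaling with library totals moved the median of all genes there, and 0.47 in OCI-LY3. CKB, the brain-type creatine kinase, had -0.96 in SU-DHL6 and 0.30 in OCI-LY3, which missed the threshold.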

How the results depend on the processing

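Over 40 results and 20 alternatives, 790 values were computed, 761 kept their direction and side of the threshold or their size, and 0 reversed a called direction. Many of these values come from leaving out a library that the comparison does not use, and could hardly change. Others are SU-DHL6 values on which the set was chosen. The share kept is therefore no measure of robustness. When single libraries were left out, the count of members called ranged from 5 to 6 in OCI-LY3. Between the untreated lines it ranged from 2 to 5 (SLC16A5, at 0 in SU-DHL6, and SLC16A3 included). There it was 2 without the second untreated OCI-LY3 library. Past the threshold in SU-DHL6 it ranged from 3 to 5, with 3 without the third treated or the second untreated SU-DHL6 library. The list genes called ranged from 22 to 29 in OCI-LY3 and from 17 to 28 in SU-DHL6, with 17 without the second untreated SU-DHL6 library. Members with a positive difference of responses numbered 5 to 6. Scaling by library totals alone moved the median log2 fold change of all genes to 0.27 in SU-DHL6, -0.09 in OCI-LY3 and 0.10 between the untreated lines, and left 4 members past the threshold in SU-DHL6, none of them lower. Without a filter on low counts, SLC16A13 missed the threshold between the untreated lines (adjusted p = 0.0649).

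Pairing by replicate number was looked for in deviations of log2 CPM from the group mean, correlated over genes. Between treated and untreated libraries of the same number, r lay between -0.12 and 0.05 in SU-DHL6 and between 0.00472 and 0.0132 in OCI-LY3. For different numbers it lay between -0.0962 and 0.105 in SU-DHL6 and between -0.0211 and 0.0147 in OCI-LY3. These values showed no pairing by number, but cannot tell how the cultures were set up. Fitted on the 6 untreated libraries alone, 3 members were called, SLC16A3 among them, each of them higher in SU-DHL6. The replicate block left 5 members called in OCI-LY3 and 4 between the untreated lines (SLC16A5, at 0 in SU-DHL6, and SLC16A3 included). It left 5 members past the threshold in SU-DHL6, and 22 list genes there.

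Members at very low levels, such as SLC16A3 in untreated OCI-LY3 (mean 0.592 CPM), rest on few counts.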
